A study of Mus musculus with 6 samples.

Results

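Lysosomes break down what phagocytes take up, and proteins of both kinds described here serve that work: cathepsins, the proteases of the lysosome, and the vacuolar proton pump (V-ATPase), which acidifies the lumen so that the proteases can act. The pump has a membrane sector (V0) that passes protons and a cytosolic sector (V1) that hydrolyses ATP, and several subunits exist as isoforms made by different cell types. The LAMP glycoproteins line the inner face of the lysosomal membrane. In a venous thrombus, neutrophils and macrophages carry many lysosomes and take part in clearing the clot.

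The 34 genes described here are all those in the deposited tables named as a single-letter cathepsin (other than Ctsg, a neutrophil granule protease), as an Atp6v proton pump gene or as a Lamp gene. They were chosen by symbol, from 16533 genes listed, and comprise 13 cathepsins, 18 Atp6v genes, of which 1 is the pseudogene Atp6v0c-ps2, and 3 Lamp genes. All 34 passed the filter on low counts.

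The samples were inferior vena cavae with their thrombi, taken 24 h after ligation, a model of deep vein thrombosis. Both groups were ligated and both carried floxed Sting1 (Stingf/f). The control group was Stingf/f without Cre, and the mKO group was Stingf/f Lyzm-Cre+/-, in which Cre is made from the Lyz2 locus of myeloid cells, so that the other cells of the vein and clot are not targeted. Each group has 3 pools of 3 thrombi each. The labels do not say how animals were allotted to pools, so p-values reflect only how far these pools vary. No Cre-only or unligated vein was analysed here.

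Libraries held 158579864 to 180068483 counts, and the 34 genes took 0.502% to 0.663% of them. The lowest count of any member in any library was 33, for Lamp5, and the highest 278866, for Ctsd, so counting error was small beside the spread between pools. Sting1 stood at 25.1, 31.4 and 27.1 CPM (counts per library size, on the usual CPM scale, with TMM-adjusted sizes) in control and at 22.7, 21.4 and 28.7 CPM in mKO, which overlap. The count covers every cell of the tissue, and the part of this in the overlap was not tested. These counts do not by themselves show the deletion of Sting1, and the genotypes were taken as labelled. Lyz2 had 1430, 1759 and 1885 CPM in control and 643, 1149 and 1153 CPM in mKO, but this is the locus that carries Cre, and the cause of the difference was not tested. Markers of neutrophils, macrophages, platelets, endothelium and smooth muscle were present in every library. Library mKO 3 stood apart in skeletal muscle transcript, with a summed level of 176.9 CPM over 7 marker genes, while the others had 3.22 to 49.7 CPM, the highest of them control 3. Both of these libraries are left out together in one of the alternative fits below.

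Promoter sequence is shown for the members whose window holds the 8-base palindrome TCACGTGA, the core of the element through which TFEB, a transcription factor of lysosomal genes, binds many of them. Windows of 300 bases, 250 before and 50 after the start, were matched by symbol in a RefSeq table (GRCm38.p6, an earlier build than that of the counts) for 23 of the 34 members. The palindrome, which reads the same on both strands, was found in 5 of their 28 windows (17.9%), against 0.974% of all 32851 windows in the table. Its inner 6 bases, CACGTG, which lie within every such match, were found in 9 of the 28 (32.1%), against 7.15% of all windows. A match of letters is a description and does not show that a factor binds. The stretches below end at or within 30 bases of the start, run 5′ to 3′ on the gene's strand, and have the palindrome in capitals.
Ctsd, chr7:142387828-142388077, minus strand: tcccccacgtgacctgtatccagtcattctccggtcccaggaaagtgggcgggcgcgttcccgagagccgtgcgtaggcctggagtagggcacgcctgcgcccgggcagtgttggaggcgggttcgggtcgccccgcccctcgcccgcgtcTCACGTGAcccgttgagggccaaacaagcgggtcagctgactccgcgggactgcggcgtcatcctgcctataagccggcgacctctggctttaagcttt
Atp6v1a, chr16:44139260-44139509, minus strand: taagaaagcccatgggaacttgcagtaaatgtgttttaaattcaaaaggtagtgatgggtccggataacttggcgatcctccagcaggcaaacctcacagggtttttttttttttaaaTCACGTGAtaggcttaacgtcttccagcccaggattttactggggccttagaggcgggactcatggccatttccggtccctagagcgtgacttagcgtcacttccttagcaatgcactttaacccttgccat
Ctsa, chr2:164833730-164833802, plus strand: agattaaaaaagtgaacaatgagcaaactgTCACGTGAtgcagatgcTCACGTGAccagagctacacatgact
Atp6v0d1, chr8:105566035-105566098, minus strand: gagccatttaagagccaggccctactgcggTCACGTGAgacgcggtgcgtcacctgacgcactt
Atp6v0e, chr17:26676368-26676425, plus strand: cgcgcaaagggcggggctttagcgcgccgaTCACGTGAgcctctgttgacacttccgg
The first base of the palindrome lay 99 bases before the start in Ctsd, 132 in Atp6v1a, 13 in Ctsa and 4 in Atp6v0d1, while in Atp6v0e, and in a second copy in Ctsa, it lay at bases 3 and 5 of the transcript. Among these 5 genes Ctsd and Atp6v1a are described below with all mKO libraries above all controls. That held for 26.5% of the 34 members and 8.76% of all genes tested. It also held for Ctsz, Atp6v0c and Atp6v1d, whose windows held no palindrome, and a link between palindrome and fold change was not tested. Ctsa, Atp6v0d1 and Atp6v0e had log2 fold changes (mKO over control) of 0.21, 0.24 and 0.09, with groups that overlapped. Members with no entry in the table were Atp6v0a2, Atp6v0c-ps2, Atp6v0d2, Atp6v1b2, Atp6v1c1, Atp6v1g1, Atp6v1h, Ctsb, Ctse, Ctsh and Ctsw.

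Among the cathepsins the acid protease Ctsd was the most abundant. Per kb of exon, its level averaged 615 CPM per kb over the 6 libraries. This scale allows for unequal gene length, but the length is the union of all annotated exons, whichever transcript is made. The cysteine proteases Ctss, an enzyme of antigen presentation, Ctsz, a carboxypeptidase, and Ctsb, a broad-range endo- and exopeptidase, followed at 203, 179 and 155 CPM per kb, and their library ranges overlapped one another (173 to 257, 154 to 189 and 121 to 206). The order of these 3 depends on the length used, which was 1.36, 1.44 and 6.05 kb for Ctss, Ctsz and Ctsb. In mean CPM Ctsb had 771.3 in control and 1100 in mKO, Ctss 275.3 and 274.9, and Ctsz 245.1 and 270.5. Ctsa, the serine carboxypeptidase that also protects beta-galactosidase and neuraminidase, had 32.9 CPM per kb. Ctsc, the activator of granule serine proteases, Ctsl and Ctsh had 28.4, 27.2 and 25.4 CPM per kb. The remaining 5, Ctse, Ctsk, Ctso, Ctsw and Ctsf, lay between 0.533 and 6.25 CPM per kb. Ctsb and Ctsd together made up 62.7% to 65.2% of the summed cathepsin CPM in control libraries and 67.1% to 71.0% in mKO libraries.

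The ubiquitous pump subunits ran from 2.86 to 92.2 CPM per kb. The cathepsins from Ctsh up to Ctsd ran from 25.4 to 615 CPM per kb, and the least abundant, Ctsf, had 0.533. In V0, the proton-carrying proteolipids Atp6v0c and Atp6v0b had 92.2 and 71.6 CPM per kb, and the d subunit Atp6v0d1, which sits between the sectors, had 67.3 CPM per kb. In V1, the small stalk subunits Atp6v1f and Atp6v1g1 had 84.6 and 78.1 CPM per kb, and the regulatory subunit Atp6v1h had the lowest level of the widely made subunits, at 2.86 CPM per kb. Isoforms known mainly from brain were far lower than their partners: per kb, Atp6v1g2 had 0.0149 to 0.0288 of the level of Atp6v1g1, and Atp6v0e2 had 0.0351 to 0.0993 of that of Atp6v0e. Among the large a subunits of V0, Tcirg1, the a3 isoform of osteoclasts and immune cells that is not an Atp6v symbol, stood per kb at 1.19 to 2.19 times Atp6v0a1, and Atp6v0a2, of the Golgi, at 0.362 to 0.678 times. In CPM, without the length, Tcirg1 stood at 0.837 to 1.53 times Atp6v0a1. The ranges of these ratios overlapped between the groups. Lamp1 had 123 CPM per kb, Lamp2, which also serves chaperone-mediated autophagy, 30.4, and Lamp5, known from neurons and dendritic cells, 0.166.

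**Figure D1:**
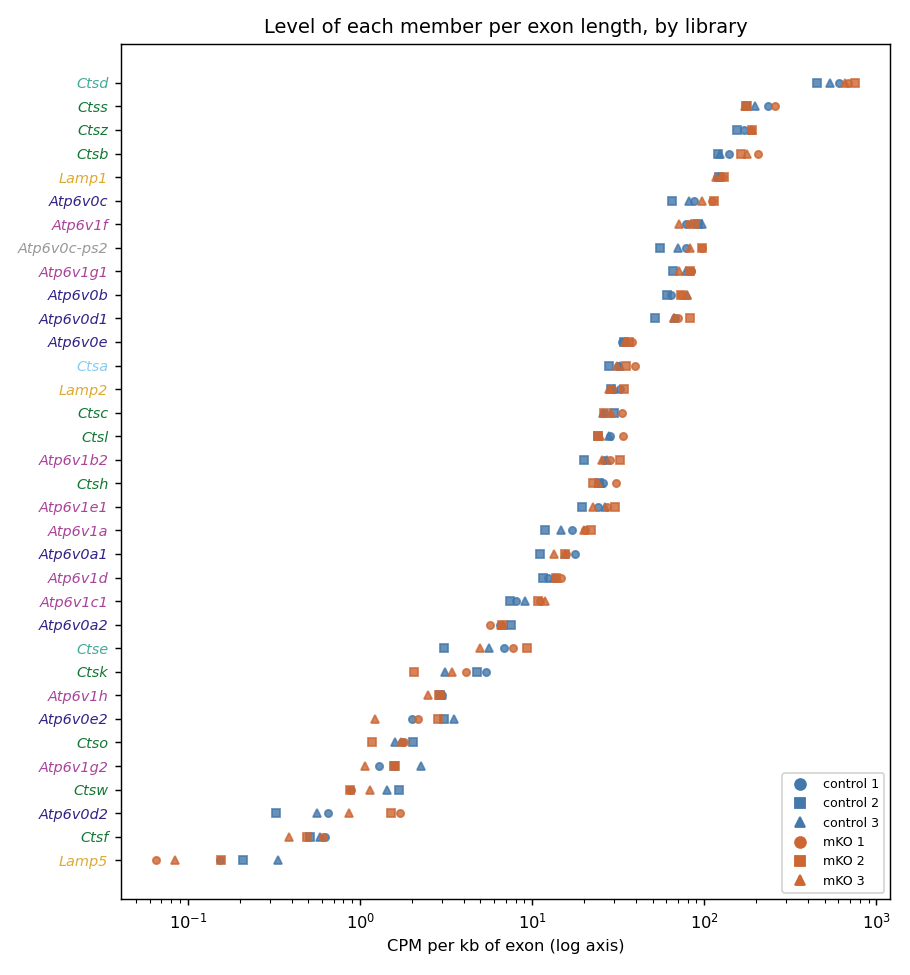
Level of the 34 genes in CPM per kb of exon (log axis), 1 point per library, with control in blue, mKO in orange and the replicate number as the symbol (1 circle, 2 square, 3 triangle); gene names are coloured by role. Ctsd averages 615 CPM per kb and Lamp5 0.166.

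Setting mKO beside control asks which transcripts of the ligated vein and its clot differ when floxed Sting1 is joined with Cre in myeloid cells. Without a Cre-only group, a difference due to STING cannot be told apart from one due to Cre or its place in Lyz2. No member passed the test: by edgeR's quasi-likelihood test with Benjamini-Hochberg adjustment over 16523 genes, 0 of 34 had an adjusted p under 0.05, as did 0 of all genes (0%). Adjusted p over the members ran from 0.246 to 0.997. At an unadjusted p under 0.05 there were 8 members (23.5%), against 11.9% of all genes tested. Of these, 7 were higher in mKO (20.6% of members, against 5.6% of all genes) and 1 was lower (against 6.26% of all genes). All 3 mKO libraries lay above all 3 controls for 9 members (26.5%, against 8.76% of all genes), and below them for 0 members (against 9.39%). Most members, 26 of 34, had a mean of at least 10 CPM. Among all genes tested at that level, 8.17% were higher at that p and 12% had every mKO library above every control. Without mKO 1 there were 4 members at an unadjusted p under 0.05 (11.8%, against 11.5% of all genes in the same fit), a share at the background. Without control 3 there were 5 (14.7%, against 9.14%), and without control 3 and mKO 3 together 3 (8.82%, against 8.03%), again near the background.

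The median log2 fold change over the 34 genes was 0.07, against -0.03 over all genes tested. It was 0.05 for the cathepsins, where it turned to -0.10 without mKO 1, 0.17 for the Atp6v genes and 0.01 for the Lamp genes, where it turned to -0.05 with libraries scaled by total counts only. Above 0 there were 23 members (67.6%, against 45.9% of all genes), and 19 with total counts only and without control 2.

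**Figure D2:**
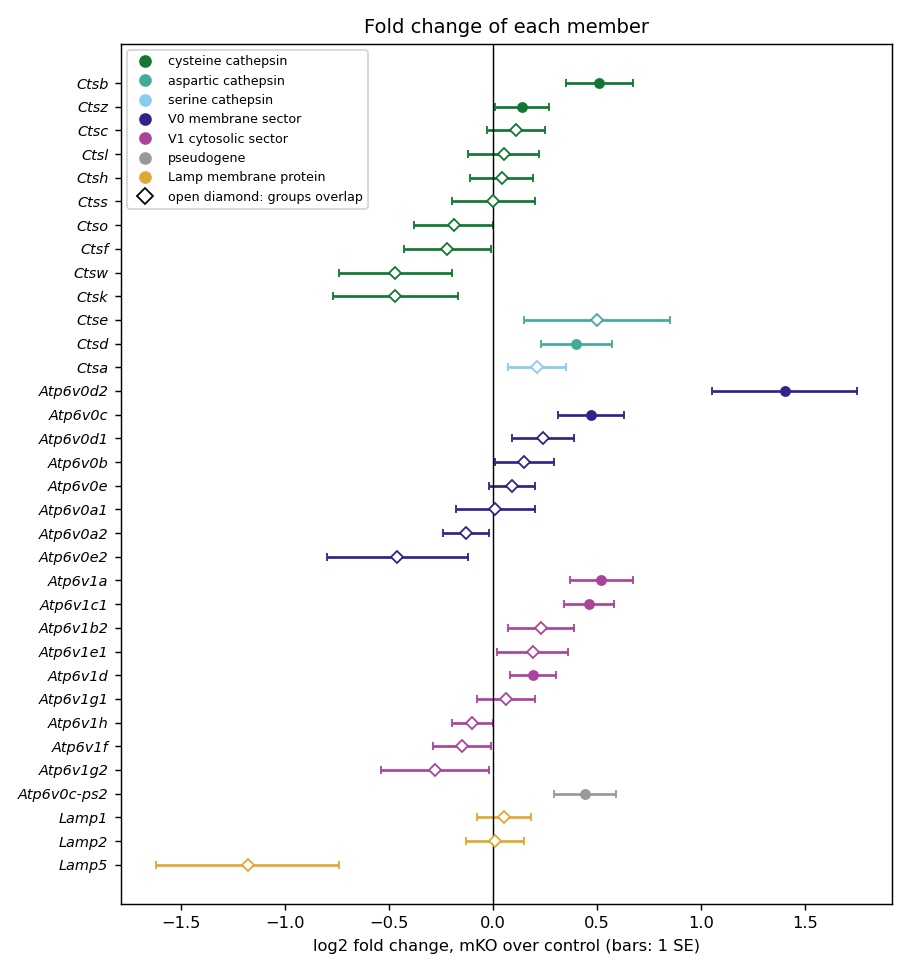
Log2 fold change of each member, mKO over control, with bars of 1 SE, ordered by role; filled circles are members whose groups do not overlap and open diamonds those whose groups do. The 9 filled circles are all above 0, from Ctsz at 0.14 to Atp6v0d2 at 1.40, while Lamp1, Lamp2 and Ctss lie at 0.05, 0.01 and -0.00.

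DESeq2, an alternative test on the same counts, called 3 members, Atp6v0d2, Ctsb and Atp6v1c1, all higher in mKO (8.82% of members, against 2.8% of all genes). Their DESeq2 adjusted p-values were 0.00841, 0.0110 and 0.0196. Over all alternatives these ranged from 0.00841 to 0.550 for Atp6v0d2, from 0.0110 to 0.736 for Ctsb and from 0.0196 to 0.614 for Atp6v1c1. By exact two-sided permutation of 3 against 3 libraries no single gene can go below p = 0.1, which every member without overlap reaches.

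Among the cysteine cathepsins Ctsb (chromosome 14) differed most. Its level was 839, 730.4 and 744.6 CPM in the control libraries and 1246, 989.7 and 1064 CPM in the mKO libraries. Every mKO library stood above every control, with mKO 1 the highest. The log2 fold change came to 0.51 (SE 0.16, 95% interval 0.14 to 0.88), a 1.43-fold difference, and the edgeR adjusted p was 0.317. The fold change stayed between 0.42 and 0.58 on leaving out each library. An antisense neighbour in the files, Fdft1, shares 12.8% of the annotated Ctsb exons and has 3697 to 5155 counts by library, and because the strand setting is not given their shared reads cannot be told apart.

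Ctss, made by antigen-presenting cells, showed no such shift, with 318.9, 238.7 and 268.4 CPM in control and 349.6, 240.0 and 235.1 CPM in mKO. The groups overlapped fully, and the log2 fold change was -0.00 (SE 0.20, 95% interval -0.47 to 0.47). Ctsl and Ctsh, lysosomal proteases of many cell types, had 0.05 (SE 0.17) and 0.04 (SE 0.15), and Ctsc had 0.11 (SE 0.14). In mKO 1, Ctsl, Ctsh, Ctsc and Ctss each had their highest level of the 6 libraries. The ratio of Ctsb to Ctss within a library, which no scaling of libraries can move, was 2.63, 3.06 and 2.77 in control and 3.57, 4.12 and 4.53 in mKO. This ratio and the others below were chosen after the values were seen and are given without a test.

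Ctsz stood at 246.3, 221.8 and 267.4 CPM in control and at 267.4, 272.1 and 271.9 CPM in mKO. The groups did not overlap, though mKO 1 stood barely above control 3, and the log2 fold change was 0.14 (SE 0.13). The 4 cysteine cathepsins of low level all had values below 0 with overlapping groups: Ctsk, the collagen-degrading protease of osteoclasts, at -0.47 (SE 0.30), Ctsw at -0.47 (SE 0.27), Ctsf at -0.22 (SE 0.21) and Ctso at -0.19 (SE 0.19). Ctsw is made by cytotoxic lymphocytes, and beside it all 14 measured T and NK cell markers were below 0, against 8947 of all 16523 genes tested. At an unadjusted p under 0.05, 5 of these 14 markers were lower (35.7%, against 6.26% of all genes). Their summed level over all 14 was 38.7 to 70.7 CPM in control and 31.6 to 33.6 CPM in mKO. The part of that difference in Ctsw was not tested.

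Of the aspartic cathepsins, Ctsd (chromosome 7) had 1422, 1058 and 1258 CPM in control and 1612, 1776 and 1553 CPM in mKO. All mKO libraries were above all controls, with control 2 the lowest of the 6. Its log2 fold change was 0.40 (SE 0.17, 95% interval 0.00 to 0.80), the edgeR adjusted p was 0.416, and without control 2 the log2 fold change was 0.30. In the annotation, 34.4% of its exon bases are shared with the same-strand gene Gm49369, which has 0 to 101 counts by library, so that reads of Ctsd could be lost where both genes are hit. Ctse, an aspartic protease of immune cells and stomach, had 21.8, 9.70 and 17.7 CPM in control and 24.4, 29.4 and 15.8 CPM in mKO, a log2 difference of 0.50 (SE 0.35), which was 0.23 without control 2. Control 2 and mKO 3 were its lowest libraries. The serine cathepsin Ctsa had 148.5, 131.2 and 152.2 CPM in control and 187.3, 164.5 and 147.3 CPM in mKO, where mKO 3 lay among the controls (log2 fold change 0.21, SE 0.14).

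**Figure D3:**
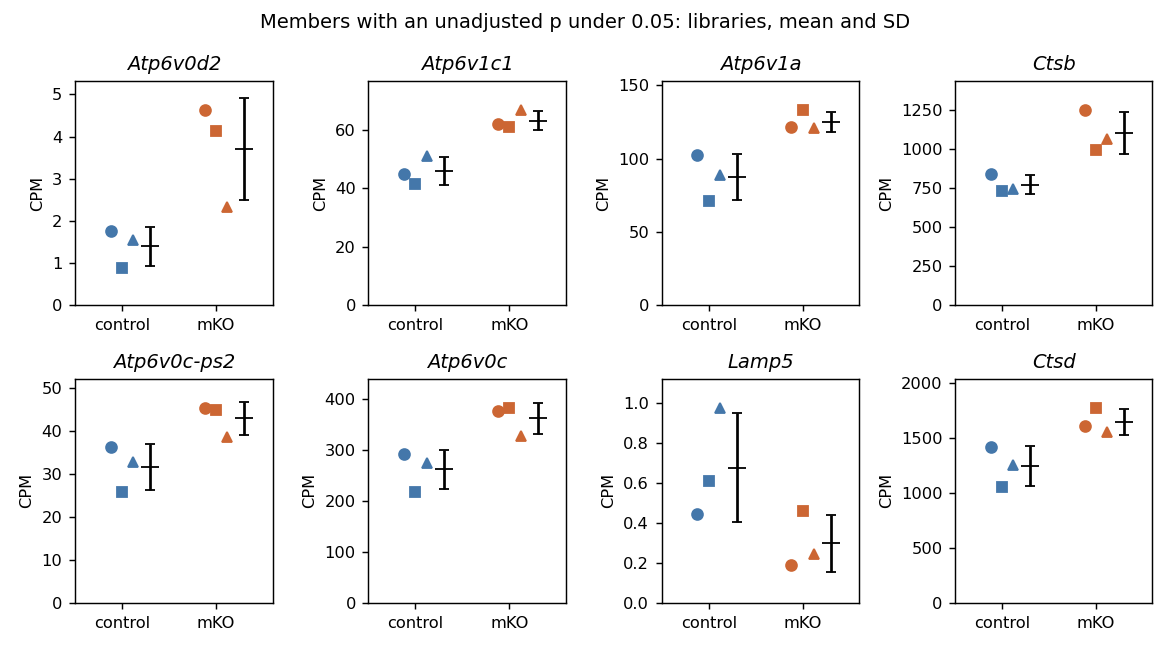
CPM of the 8 members with an unadjusted p under 0.05, each on its own axis from 0, by library (symbol: replicate number, 1 circle, 2 square, 3 triangle) with the mean and SD of 3 libraries beside it in black. In 7 of them the mKO libraries lie above the controls, and in Lamp5 they are lower with mKO 2 at 0.458 CPM inside the control range.

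In the membrane sector of the pump, Atp6v0d2 (chromosome 4), the d isoform of osteoclasts and some macrophages, had the highest fold change of all members. It had 1.77, 0.883 and 1.54 CPM in control and 4.62, 4.14 and 2.33 CPM in mKO, from 161 to 800 counts. The groups did not overlap, and mKO 3 was the mKO library nearest to the controls. On the log2 scale the difference was 1.40 (SE 0.35, 95% interval 0.60 to 2.21). Its edgeR adjusted p was 0.246, and the difference ran from 1.16 without control 2 to 1.65 without mKO 3. Its widely made partner Atp6v0d1 had 120.7, 92.6 and 118.8 CPM in control and 125.8, 147.1 and 118.9 CPM in mKO (log2 fold change 0.24, SE 0.15). Per kb, Atp6v0d2 was 0.00630 to 0.00968 of Atp6v0d1 in control and 0.0129 to 0.0243 in mKO, so it remained a small part of the d subunit transcript in both groups.

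The proteolipid gene Atp6v0c (chromosome 17) had 292.9, 218.4 and 274.4 CPM in control and 376.5, 382.3 and 327.7 CPM in mKO. Every mKO library was above every control, and the log2 fold change came to 0.47 (SE 0.16; edgeR adjusted p 0.350). The pseudogene Atp6v0c-ps2 (chromosome 6) had 36.2, 25.7 and 32.7 CPM in control and 45.3, 44.8 and 38.5 CPM in mKO, a log2 fold change of 0.44 (SE 0.15). It cannot be taken as a separate observation. Its transcript of 465 bases is identical to Atp6v0c at 99.8% of 465 aligned bases, 88% of its 50-base windows occur unchanged in Atp6v0c transcripts, and its count was 0.117 to 0.124 of that of Atp6v0c in every library. Without the pseudogene, 6 of 33 members were higher at an unadjusted p under 0.05 (18.2%), and 8 of 33 had mKO libraries above all controls (24.2%).

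The remaining V0 genes had overlapping groups. On the log2 scale Atp6v0b differed by 0.15 (SE 0.14) and Atp6v0e by 0.09 (SE 0.11). Atp6v0a1, a large subunit that anchors the pump, had 0.01 (SE 0.19) and turned to -0.16 without control 2. Atp6v0a2 had -0.13 (SE 0.11), and the brain isoform Atp6v0e2 had -0.46 (SE 0.34; -0.19 without mKO 3), with mKO 3 lowest at 2.90 CPM and the others at 4.76 to 8.35 CPM. Library mKO 3 also had the lowest summed level of sympathetic neuron markers, 4.98 CPM where the others had 95.5 to 312.2 CPM, and the part of this in Atp6v0e2 was not tested.

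In the cytosolic sector, Atp6v1c1 (chromosome 15), the subunit that joins and leaves when the pump is switched on and off, had 44.96, 41.59 and 51.16 CPM in control and 62.0, 60.8 and 66.7 CPM in mKO. The groups stood well apart, and the libraries within each were close. The difference on the log2 scale was 0.46 (SE 0.12, 95% interval 0.19 to 0.73), at an edgeR adjusted p of 0.248, and stayed between 0.39 and 0.55 on leaving out each library. Atp6v1a (chromosome 16), the catalytic ATP-binding subunit, had 102.3, 71.2 and 88.6 CPM in control and 121.7, 133.1 and 121.2 CPM in mKO. All mKO libraries were higher, and the log2 fold change came to 0.52 (SE 0.15; edgeR adjusted p 0.312). It was 0.39 without control 2 and 0.65 without control 1.

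The other V1 subunits differed less. Atp6v1d, of the central rotor, had 56.6, 53.1 and 61.3 CPM in control and 67.6, 63.0 and 64.1 CPM in mKO, without overlap but at a log2 fold change of 0.19 (SE 0.11). Atp6v1b2, the partner of the catalytic subunit, and Atp6v1e1, of the outer stalk, had 0.23 (SE 0.16) and 0.19 (SE 0.17), with overlap. Atp6v1g1, Atp6v1h, Atp6v1f and Atp6v1g2 had 0.06 (SE 0.14), -0.10 (SE 0.10), -0.15 (SE 0.14) and -0.28 (SE 0.26). The value of Atp6v1g2 was -0.02 without control 3, its highest library. Within each library the ratio of Atp6v1a to Atp6v1h was 3.50, 2.52 and 3.05 in control and 4.23, 4.77 and 5.03 in mKO, and that of Atp6v1c1 to Atp6v1h was 1.54, 1.47 and 1.76 in control and 2.16, 2.18 and 2.77 in mKO. Neither ratio overlapped between the groups.

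The LAMP genes Lamp1 and Lamp2, the main structural proteins of the lysosomal membrane, had values near 0. Lamp1 had 319.6, 324.4 and 324.1 CPM in control and 339.3, 346.8 and 313.8 CPM in mKO, with a log2 fold change of 0.05 (SE 0.13, 95% interval -0.25 to 0.34). Lamp2 had 309.5, 275.7 and 283.3 CPM in control and 279.0, 328.0 and 266.2 CPM in mKO, with 0.01 (SE 0.14, 95% interval -0.32 to 0.34). The ratio of Ctsd to Lamp1 within a library was 4.45, 3.26 and 3.88 in control and 4.75, 5.12 and 4.95 in mKO. Lamp5 had 0.446, 0.609 and 0.975 CPM in control and 0.191, 0.458 and 0.246 CPM in mKO. Its groups overlapped through mKO 2, the log2 fold change was -1.18 (SE 0.44), the edgeR adjusted p was 0.371, and without control 3 the log2 fold change was -0.82.

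**Figure D4:**
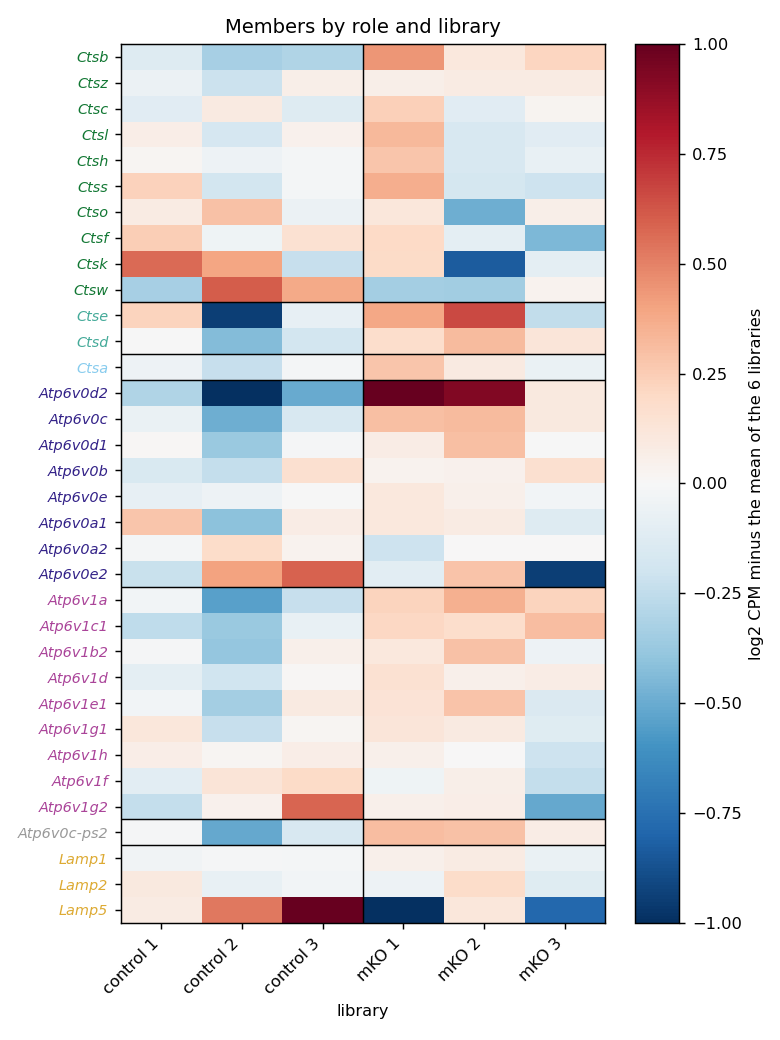
Log2 CPM of each member minus its mean over the 6 libraries (rows: genes by role; columns: libraries; the colour scale ends at 1 and -1, and values beyond it have the end colours). Control 2 holds the lowest value of 18 of the 34 genes, and mKO 1 and mKO 2 the highest of 11 and 10.

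Among the libraries, control 2 had the lowest level of 18 of the 34 genes, and mKO 3 of 8. The highest level fell in mKO 1 for 11 genes and in mKO 2 for 10. Summed over the 13 cathepsins the level was 3469, 2854 and 3169 CPM in control and 4258, 3896 and 3742 CPM in mKO. Summed over the 18 Atp6v genes it was 1525, 1277 and 1558 CPM in control and 1719, 1789 and 1578 CPM in mKO, where mKO 3 exceeded control 3 only slightly. The cathepsin sum was led by Ctsb and Ctsd, while the pump sum was spread over many subunits. Control 2, lowest in both sums, was also the library with the highest summed smooth muscle, endothelial, fibroblast and T and NK cell markers. Smooth muscle markers summed to 3063 CPM in it and to 680.5 to 1488 CPM in the others. It had the lowest summed neutrophil markers and, without Lyz2, macrophage markers. The part of this in its low member levels was not tested.

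The fold changes also differed by level, in a division at a mean of 10 CPM that was made after the values were seen. Of the 26 members at or above it 22 were above 0, with a median of 0.14 (84.6%, against 55.8% of all genes tested at that level). Of the 8 below it 7 were below 0, with a median of -0.37, and 1 was above 0 (12.5%, against 36.8% of all genes at that level). The 1 above 0 was Atp6v0d2, and the others were Ctsf, Ctsk, Ctso, Ctsw, Atp6v0e2, Atp6v1g2 and Lamp5. Of the 26 members at or above 10 CPM, 8 had every mKO library above every control (30.8%, against 12% of all genes at that level). At an unadjusted p under 0.05, 6 of them were higher (23.1%, against 8.17%).

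Cells in these pools could differ between the groups, and in bulk tissue fewer cells of a type and less RNA per cell cannot be told apart. Of 12 measured neutrophil markers 0 had an unadjusted p under 0.05 (against 11.9% of all genes) and 8 were above 0 (66.7%, against 45.9%). Their summed level was 10540 to 17980 CPM in control, with control 2 the lowest, and 13980 to 20430 CPM in mKO. Of 15 macrophage markers 1 was higher (6.67%, against 5.6% of all genes) and 2 were lower (against 6.26%) at an unadjusted p under 0.05. Without Lyz2, 1 of the other 14 was lower at that p. Of these 14, 2 had every mKO library above every control and 1 had every one below. Their log2 fold changes ran from -0.56 to 0.60, with 11 above 0 and 3 below. Their summed level was 1826 to 2566 CPM in control, with control 2 the lowest, and 2308 to 3234 CPM in mKO, which overlap. The 1 higher among them was Cd68, itself a lysosomal glycoprotein of macrophages, which is also counted among the lysosomal membrane proteins below. It had 157, 119 and 140.3 CPM in control and 223, 214.9 and 194.1 CPM in mKO (log2 fold change 0.60, SE 0.15). The receptor Csf1r had 170, 149 and 167 CPM in control and 196, 231 and 181 CPM in mKO. Relative to Cd68 within a library, Ctsb was 5.31 to 6.14 in control and 4.61 to 5.60 in mKO, which overlap, and Ctsd was 8.89 to 9.06 in control and lower, at 7.24 to 8.26, in mKO. Relative to Csf1r, Ctsb was 4.95, 4.89 and 4.45 in control and 6.37, 4.28 and 5.89 in mKO. These overlap through mKO 2, and the other mKO libraries were above all controls. No measured marker of either list was at 0 in any library, and their part in the differences of the cathepsin and pump genes was not tested. Over all genes tested, 8947 of 16523 were below 0, and at an unadjusted p under 0.05 the shares were 5.6% higher and 6.26% lower. All 9 endothelial markers were below 0 (2 at that p, 22.2%), with a summed level of 863.6 to 993.3 CPM in control and 638.9 to 781.4 CPM in mKO. All 8 smooth muscle markers were also below 0 (1 at that p, 12.5%), but their summed levels of 1223 to 3063 CPM in control and 680.5 to 1488 CPM in mKO overlap. All 8 platelet markers were below 0 (2 at that p, 25%), at 4193 to 6219 CPM in control and 3158 to 4770 CPM in mKO, which overlap. All 7 adipocyte markers were below 0 (4 at that p, 57.1%), at 637.1 to 768.7 CPM in control and 342.2 to 511.4 CPM in mKO, which do not overlap. All 8 erythroid markers were above 0 (4 at that p, 50%), at 200900 to 259000 CPM in control and 238900 to 284900 CPM in mKO, which overlap. Fibroblast, B and plasma cell and dendritic cell markers had medians of -0.18, -0.06 and -0.14, with summed levels that overlapped. Of 7 dendritic cell markers 3 had an unadjusted p under 0.05 (42.9%), 2 higher and 1 lower. Of 8 fibroblast markers 1 was higher at that p (12.5%), as was 1 of 7 B and plasma cell markers (14.3%). None of these markers passed with edgeR's adjusted p, and their part in the results was not tested either.

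The rest of the lysosomal system was described by lists that hold no member. Of 43 measured lysosomal hydrolases other than cathepsins, 16 were higher at an unadjusted p under 0.05 and 0 were lower (37.2%, against 5.6% of all genes for higher ones), with a median log2 fold change of 0.21. Among all genes with a mean of at least 10 CPM, 8.17% were higher at that p. The clearest was Gm2a, the activator of ganglioside breakdown, with 128.1, 126.1 and 123.2 CPM in control and 192, 217.2 and 203.5 CPM in mKO, a log2 fold change of 0.70 (SE 0.12) and an edgeR adjusted p of 0.154. Man2b1, a lysosomal mannosidase, and Hyal1, which cleaves hyaluronan, had 0.60 (SE 0.15) and 0.71 (SE 0.18). Psap, the precursor of the saposins and the most abundant of the list, had 0.40 (SE 0.15). None of the 43 passed with edgeR's adjusted p, and DESeq2 called 6 of them, all higher.

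Of 32 lysosomal membrane proteins and transporters 8 were higher at an unadjusted p under 0.05 (25%) and 0 lower, with a median of 0.14. For this list and those that follow, the shares over all genes are 5.6% higher and 6.26% lower. Npc1, the cholesterol exporter, had 65.6, 52.9 and 59.1 CPM in control and 87.5, 91.1 and 97.4 CPM in mKO (log2 fold change 0.64, SE 0.12), and Igf2r, the receptor that sorts newly made hydrolases, had 0.60 (SE 0.13). Accessory and assembly genes of the pump had a median of 0.01 over 14 genes, with 2 higher (14.3%) and 1 lower at that p. The higher ones were the accessory subunits Atp6ap2 at 0.41 (SE 0.12) and Atp6ap1 at 0.33 (SE 0.12), and the lower one was Ncoa7, a stress-response protein that binds the pump, at -0.47 (SE 0.14). Both accessory subunits had every mKO library above every control.

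Inhibitors of cathepsins were measured with 14 genes, of which 3 were higher (21.4%) and 1 was lower at an unadjusted p under 0.05, with a median of 0.09. Cstb, the cytosolic inhibitor of Ctsb and related proteases, had 200.7, 178.2 and 208.3 CPM in control and 316.7, 272.7 and 275.1 CPM in mKO (log2 fold change 0.56, SE 0.14). The ratio of Ctsb to Cstb was 3.58 to 4.18 in control and 3.63 to 3.94 in mKO, so enzyme and inhibitor transcripts held about the same ratio in both groups. Stefins of neutrophils, Stfa2l1 and Csta3, had 0.51 (SE 0.18) and 0.64 (SE 0.21), though their reads may be shared with near-identical family members. The lower one was Serpinb6a, an intracellular serpin, named after its values were seen, with 147.7, 164.4 and 176.1 CPM in control and 124.4, 138.8 and 97.5 CPM in mKO, all below the controls (log2 fold change -0.44). Cst3, the secreted cystatin, had 0.04 (SE 0.15).

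Of 28 genes of the TFEB family and of nutrient sensing at the lysosome, 6 were higher (21.4%) and 2 were lower at an unadjusted p under 0.05, with a median of 0.12. The lower ones, named after their values were seen, were Ppargc1a, a coactivator of mitochondrial genes, at -1.46, and Map1lc3a, an autophagosome protein, at -0.27. Tfeb itself had 28.3, 19.3 and 26.4 CPM in control and 35.9, 39.8 and 40.3 CPM in mKO, a log2 fold change of 0.65 (SE 0.15) with an edgeR adjusted p of 0.239. Rragd, a GTPase that brings mTORC1 to the lysosome, had 0.66 (SE 0.14), and the related factor Mitf had 0.54 (SE 0.14). Of 14 measured genes of osteoclasts and fused macrophages, a list that shares Clcn7, Ostm1 and Gpnmb with the membrane proteins, Tcirg1 with the accessory pump genes and Acp5 with the hydrolases, 6 were higher (42.9%) and 1 lower, Tm4sf19 at -0.61, with a median of 0.25, the highest of the 6 pathway lists. Ocstamp, a fusion protein, had 0.621, 0.609 and 1.02 CPM in control and 2.01, 1.23 and 1.31 CPM in mKO, and Spp1, osteopontin, had a log2 fold change of 0.96 (SE 0.16), beside 1.40 for Atp6v0d2 and -0.47 for Ctsk.

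**Figure D5:**
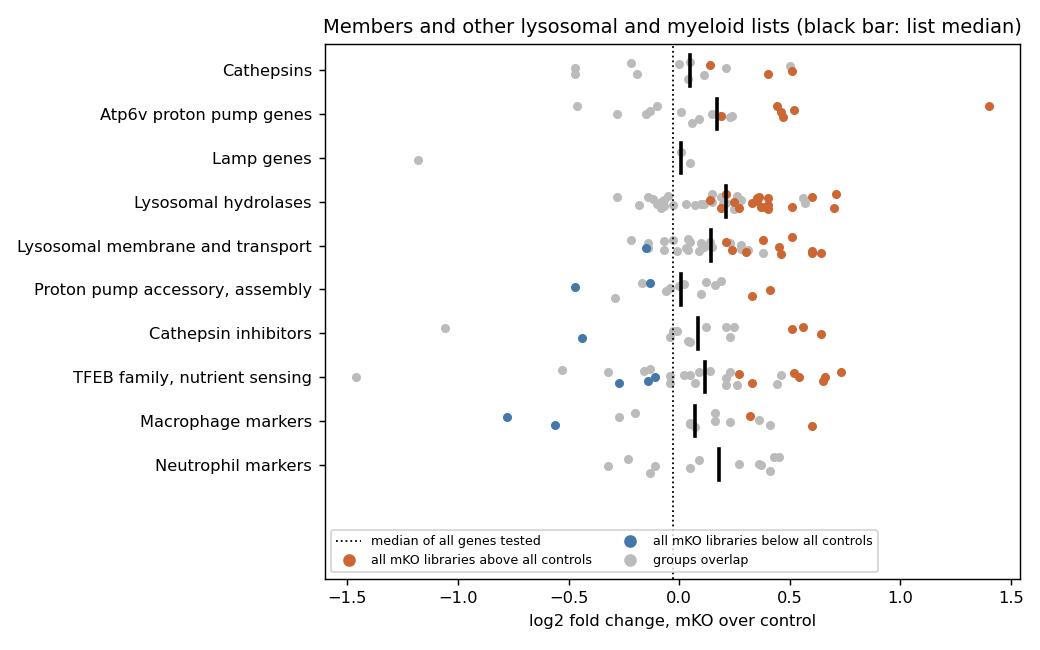
Log2 fold change, mKO over control, of every measured gene in the 3 member families and 7 other lists (1 point per gene, spread vertically for legibility; black bar: list median; dotted line: median of all genes tested, -0.03). Orange points have all mKO libraries above all controls and blue points all below; medians of the plotted lists run from 0.01 for the Lamp genes and the pump's accessory genes to 0.21 for the hydrolases.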

How the data were processed

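For each library the authors deposited unnormalized counts by gene, per the file headers. The submitters' processing notes list GRCm39 as the build and, as tools, featureCounts 2.0.1, HISAT2 2.1.0, Trim Galore 0.4.0 and FastQC 0.11.8. Annotation release, strand setting and handling of multi-mapping reads: not given in the sources used here. Testing used edgeR 4.0.16 under R 4.3.3 (quasi-likelihood F-test, TMM, robust dispersion, default expression filter, 16523 genes tested, threshold 0.05 on Benjamini-Hochberg adjusted p), with log2 fold changes as mKO over control and SEs computed from the F statistic. Alternatives used DESeq2 1.42.0, limma 3.58.1 (voom), other scalings and filters, and omitted libraries. Exon lengths are unions of GENCODE M21 exons (GRCm38), joined by gene ID, for 16480 genes; promoters are from RefSeq (GRCm38.p6).

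The members, their roles and the gene lists were chosen with earlier results of these data known. Values by library are given for members with an unadjusted p under 0.05, those without overlap and the most abundant of each role; from other lists, up to 3 genes of smallest p and the most abundant were eligible, and others named were chosen after their values were seen. The fit was checked on simulated data, where it recovered 57% of 2-fold and 94% of 4-fold changes. All member differences other than those of Atp6v0d2 and Lamp5 were smaller than 2-fold. An adjusted p above 0.05 therefore does not show that a member was unchanged. No pair of libraries agreed within sampling noise (mean chi-square per gene at least 213).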

Additional observations from a re-analysis of the deposited data

How the results depend on the processing

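Of the 17 alternatives only DESeq2 called any member, 3 of 34, with 462 of all genes called. All genes called ranged from 0 to 7 on leaving out 1 library and was 6 without control 3 and mKO 3 together, an alternative chosen after seeing the data. Members at an unadjusted p under 0.05 ranged from 4 to 9 on leaving out 1 library (11.8% to 26.5%, against 6.59% to 14.3% of all genes) and were 3 without those 2 libraries (8.82%, against 8.03%). The share was at or near that of all genes without mKO 1 (11.8%, against 11.5%) and without both. The median over members ran from 0.04 to 0.12 on leaving out 1 library, that of the cathepsins from -0.10 to 0.14, of the Atp6v genes from 0.08 to 0.26 and of the Lamp genes from -0.09 to 0.07.

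The 8 members that changed sign in some alternative lay near 0 or were of low level, and the cause was not tested. Ctss turned to 0.02 with RLE size factors and with DESeq2, to 0.00 without haemoglobin, immunoglobulin and mitochondrial genes, to 0.12, 0.09 and 0.10 without control 1, mKO 2 and mKO 3 (range on leaving out 1 library -0.21 to 0.12), and to 0.08 without control 3 and mKO 3. Atp6v0a1 turned to -0.01 with upper quartile scaling, -0.04 with total counts, -0.05 with voom quality weights, and -0.16, -0.03 and -0.02 without control 2, mKO 1 and mKO 2 (range -0.16 to 0.17). Lamp2 turned to -0.02 with upper quartile scaling and with quality weights, -0.05 with total counts, and -0.03, -0.01 and -0.09 without control 2, control 3 and mKO 2. Ctsh turned to -0.00 with total counts and -0.10 without mKO 1 (range -0.10 to 0.13), Lamp1 to -0.01 with total counts, and Ctsl to -0.02 without control 2 and -0.12 without mKO 1. Atp6v1g1 turned to -0.03 without control 2 (range -0.03 to 0.13), and Atp6v1g2 to 0.15 without control 3 and mKO 3. The 8 members with an unadjusted p under 0.05 kept their direction in all 17 alternatives.

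Replicate numbers did not pair the libraries (correlations of same-numbered deviations -0.11, -0.27 and -0.32). With a replicate block, 0 members were called, 6 had an unadjusted p under 0.05 (17.6%, against 7.86% of all genes), and the median was 0.07. The members with a mean of at least 10 CPM had 1769 counts or more in every library, and Lamp5 had as few as 33.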
